A study of Mus musculus with 32 samples.

Results

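Colonic libraries of the monocyte engraftment experiment from day 4 (3 libraries) and day 12 (4 libraries) were compared, 7 of the 32 samples of the series. They are the libraries whose titles name colon and these days. The recipients were irradiated C57BL/6J mice that carried bone marrow of the transgenic Itgax-DTR/GFP strain, called [CD11c-DTR > wt] chimeras, in which the CD11c promoter drives the diphtheria toxin (DTx) receptor in macrophages and other CD11c-expressing cells of marrow origin. DTx was given before the transfer and every second day after it, so that the last dose came on day 3 for the day 4 harvest and on day 9 for the day 12 harvest, 1 day and 3 days before the tissue was taken, and this interval and the day of harvest cannot be told apart. Recipients were 7 to 10 weeks old when the chimeras were made, and whether a library came from 1 mouse or a pool is not given in the sources used here. The graft was Ly6C+ monocytes of CD45.1 Cx3cr1 GFP/+ bone marrow (3 libraries, for which the labels give blood as the organ). Cells of the gut were labelled as sorted for CD45, CD11b, CD64 and MHCII and against Ly6C, and the graft-derived ones were recognized by CD45.1 and GFP. Dates in the titles place the libraries in 3 transfer experiments. Day 4 replicates 1 and 3 and day 12 replicates 2 and 3 come from experiment 2, day 4 replicate 2 and day 12 replicate 4 from experiment 3, and day 12 replicate 1, whose title holds an unexplained "HC", from experiment 1, which has no colonic day 4 library.

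Monocytes that enter the gut wall lose Ly6C and CCR2, gain MHC class II, and then become macrophages that take up dead cells and bacteria without marked inflammation. IL-10, made by these macrophages among other cells, acts through STAT3 to keep them in this state, and loss of its receptor on them leads to colitis. A long-lived subset in the gut carries TIM-4 and CD4. The interval from day 4 to day 12 therefore covers what is usually called late maturation, and H2-Ab1, which encodes the beta chain of the class II molecule I-A, and Il10 were taken as its markers.

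Values are normalized reads, that is reads of a gene per 10000000 mapped reads of its library. Between 1891838 and 4604348 reads fell on genes in the 7 libraries, 1 read equals 1.22 to 3.1 normalized reads, and 3 reads, taken as the floor, equal 3.65 to 9.34. These limits cover counting error only. As the labels do not say that libraries came from separate mice, the tests measure the spread between these libraries, which may be technical. No pair of libraries of a day was a duplicate, since the chi-square per degree of freedom between them was at least 8.87.

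The labelled cell type was checked first against marker lists, summed per library. The pan-leukocyte list of 28 genes (Ptprc, which encodes CD45, Coro1a, Tyrobp and others) came to 5402, 11239 and 9720 normalized reads on day 4 and to 9365, 18802, 6358 and 7125 on day 12, against a median of 193101 in the graft and 30783 in the ileum on day 12. The 36 genes of the intestinal epithelium list (Epcam, Vil1, Krt19, Lgals4 and others) came to 235095, 242406 and 262086 on day 4 and to 230584, 175575, 221079 and 208083 on day 12, against 28376 in the graft and 80916 in the ileum on day 12. Genes of colonic enterocytes summed to between 98401 and 149436 in the 7 libraries and those of goblet cells to between 78382 and 137265. All 7 libraries thus held far more reads of epithelial than of leukocyte genes, which goes against a sort for CD45, and they are called libraries labelled as colonic macrophages, or colonic libraries, below. The macrophage list (30 genes with counts, among them Csf1r, C1qa and Apoe) was nevertheless present, with 18279, 28798 and 29799 normalized reads on day 4 and 43151, 98968, 33189 and 46946 on day 12. Apoe alone gave 4408, 7204 and 6847 of these on day 4 and 18204, 55237, 16752 and 23881 on day 12. Day 12 replicate 2 had the highest leukocyte and macrophage sums and the lowest epithelial sum of the 7. In bulk samples such as these, fewer cells of a type and less RNA per cell cannot be told apart. Because epithelial and leukocyte sums move between libraries, their values are set beside the results, and their part in each was not tested unless a ratio is given.

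**Figure D1:**
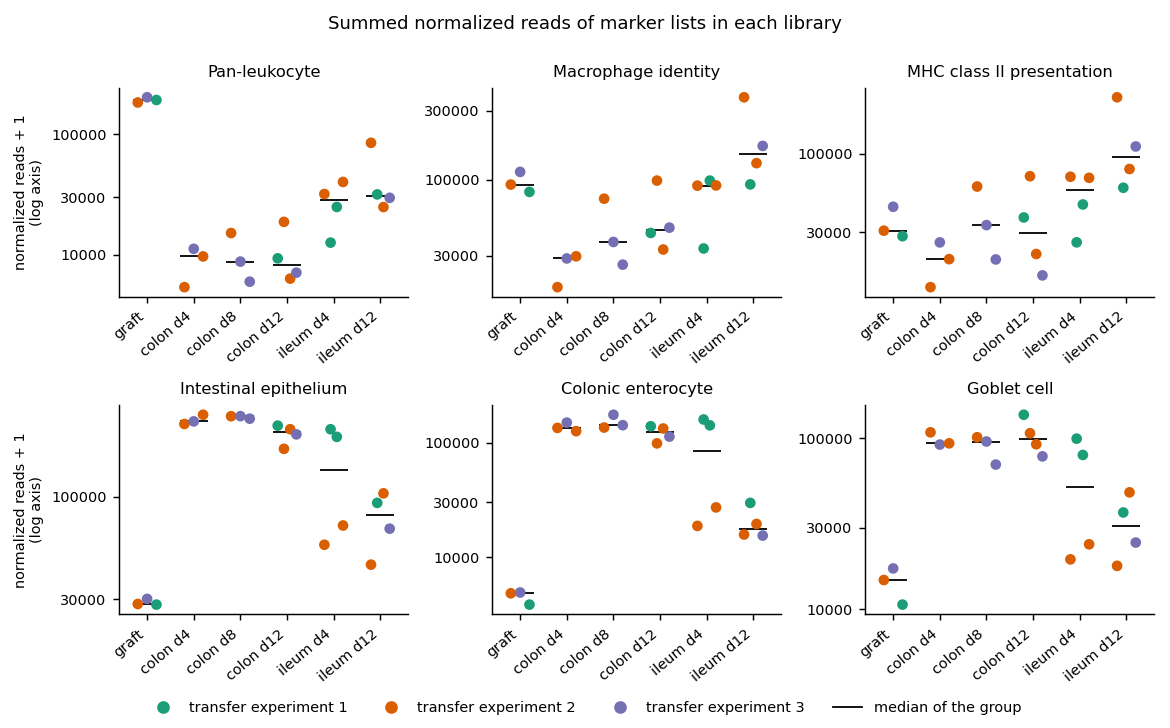
Summed normalized reads of 6 marker lists (log axis, 1 added) in each library of the graft, of colon on days 4, 8 and 12 and of ileum on days 4 and 12, with points coloured by transfer experiment and a line at the group median. Epithelial lists are high and the pan-leukocyte list is low in all colonic libraries. The macrophage list runs from 18279 to 29799 on day 4 and from 33189 to 98968 on day 12. Apoe, 1 gene of that list, runs from 4408 to 7204 on day 4 and from 16752 to 55237 on day 12. Without Apoe the macrophage sums of the days overlap.

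No gene of the 11842 tested passed the threshold between day 4 and day 12 in colon (edgeR quasi-likelihood test, 0%), and every adjusted p was 1. At an unadjusted p under 0.05 there were 245 genes, 187 higher (1.58%) and 58 lower (0.49%) on day 12 (2.07% in all). DESeq2 called 1 gene, H2-M2. The same fit called 7149 genes (60.4%) from the graft to colon on day 4. Single libraries of the 2 days were no farther apart than libraries of the same day: the root mean square difference in log2(normalized reads + 50) was 0.42 in the median over the 12 pairs between days, 0.41 over the 3 pairs of day 4 and 0.51 over the 6 pairs of day 12, against 1.63 between these libraries and the graft. Day 12 replicates 1 and 2 were nearest to a day 4 library, as was day 4 replicate 2 to a day 12 library.

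The intervals of single genes, which are not adjusted for the number of genes, give the precision. The median standard error was 0.34 on the log2 scale, and the 95% interval lay within 2-fold either way for 6765 genes (57.1%). The estimates of 11391 genes lay within 2-fold, with 332 above it and 119 below, and the median estimate of all tested genes was 0.03. For the others the interval reached a change of 2-fold or more, so that a change of this size was not excluded. In 219 genes (1.85%) all day 12 libraries lay above all day 4 libraries and in 252 (2.13%) below. Without day 12 replicate 1, the library of experiment 1, these counts were 318 and 918 of 11842. Fewer libraries are compared there, which makes a lack of overlap easier to reach in either direction. The lower count moved more than the higher one, and the part of replicate 1 in this was not tested. The estimates of experiments 2 and 3 had the same direction in 47.7% of genes.

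**Figure D2:**
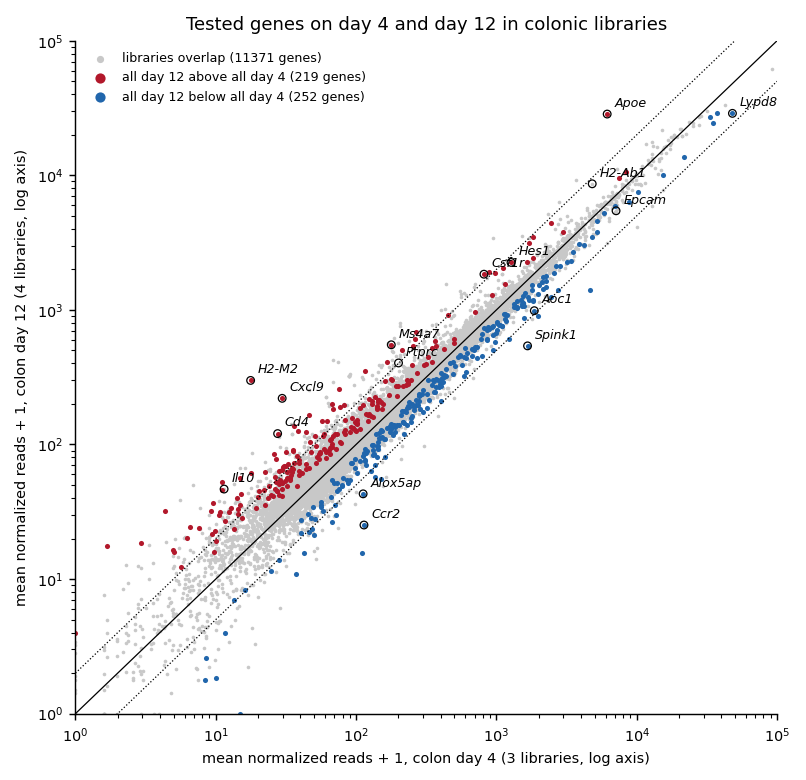
Mean normalized reads of the tested genes on day 4 (x axis) and day 12 (y axis), both on log axes with 1 added, with the line of equality and dotted lines at 2-fold. Genes without overlap between the days are coloured (219 above, 252 below) and most genes lie close to the line.

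H2-Ab1 (chromosome 17, 34400172 to 34406363, mm9) had 2232, 7803 and 4405 normalized reads on day 4 and 10247, 16189, 4800 and 3348 on day 12. The days overlapped, with day 4 replicate 2 above 2 of the day 12 libraries. The log2 fold change was 0.76 (SE 0.66, 95% interval -0.6 to 2.13). In experiment 2 the day 12 mean was 3.16 times that of day 4, whereas in experiment 3 it was 0.43 times, so the direction differed between the transfer experiments. In the graft it was at 547 to 2157, and on day 8 the 3 colonic libraries had 18096, 9812 and 3144. H2-Ab1 thus varied as widely within a day as between days. The labels name MHCII among the sort markers. If cells were sorted for it, a difference between days in class II genes would be limited, which was not tested.

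The other genes of MHC class II presentation also overlapped between the days in normalized reads. Of the 20 listed genes with counts, 17 were tested, and their median estimate was 0.76, beside 0.03 over all genes, with 13 above 0. At an unadjusted p under 0.05 there were 2, both higher, beside 1.58% of all genes. None was free of overlap, beside 1.85% of all genes higher and 2.13% lower. H2-Aa, which encodes the alpha chain of I-A, had 2357, 4598 and 4061 on day 4 and 8818, 19203, 5070 and 3561 on day 12 (log2 fold change 1.27, SE 0.62). The invariant chain gene Cd74 had 1767, 4180 and 2473 against 5418, 13894, 3443 and 2362 (1.11, SE 0.61). Ciita, the master activator of these genes, was at 93.2, 160 and 130 on day 4 and at 105, 486, 63.4 and 72.6 on day 12. Cd40, a costimulatory receptor, was at 16.1, 35.6 and 40.7 against 97.3, 193, 41.4 and 37.9 (1.51, SE 0.69). In each of these 4 genes day 12 replicate 2 was the highest library, as it was for the pan-leukocyte list. Without it the day 12 mean was 5816 in place of 9163 for H2-Aa, 3741 in place of 6279 for Cd74 and 58.9 in place of 92.4 for Cd40. H2-Ab1 per 1000 reads of the pan-leukocyte list was 413, 694 and 453 on day 4 and 1094, 861, 755 and 470 on day 12, and again overlapped, as did Cd74 and H2-Eb1. On this scale H2-Aa (409 to 436 against 500 to 1021), Cd40 (2.99 to 4.18 against 5.32 to 10.4) and H2-DMa, which encodes part of the peptide-loading molecule (36.7 to 43.8 against 45.6 to 88.8), were free of overlap. Per read of Csf1r, a gene of the macrophage list, each of these genes overlapped (H2-Aa 4.19 to 4.96 against 2.95 to 7.58). Both scales were chosen after seeing the data, and the share of all genes free of overlap on them is not given here.

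Il10 (chromosome 1, 132916422 to 132921547) was near the limit of counting. It had 8, 3 and 4 reads on day 4, which equal 14.3, 8.89 and 8.13 normalized reads, and 34, 26, 6 and 17 reads on day 12, which equal 66.2, 81, 7.31 and 28. No read was seen in the 3 graft libraries. Of the day 12 libraries 3 lay above all of day 4, and replicate 3 lay below all of it. The log2 fold change was 1.98 (SE 0.85, 95% interval 0.23 to 3.74). The ratio was 3.93 in experiment 2 and 3.15 in experiment 3, but experiment 2 joins the 81 of replicate 2 and the 7.31 of replicate 3. Per 1000 pan-leukocyte reads Il10 came to 2.65, 0.79 and 0.84 on day 4 and to 7.07, 4.31, 1.15 and 3.94 on day 12.

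The 14 tested genes of the IL-10 axis had a median estimate of 0.29. At an unadjusted p under 0.05 there were 2 higher and 1 lower, beside 1.58% and 0.49% of all genes. Il10ra, the ligand-binding receptor chain, had 35.9, 110 and 93.5 on day 4 and 140, 255, 51.2 and 145 on day 12 (0.86, SE 0.67). Socs3, a feedback inhibitor that STAT3 induces, had 348, 308 and 537 against 691, 601, 407 and 759 (0.64, SE 0.29). Sbno2, a corepressor downstream of STAT3, was free of overlap at 310, 308 and 356 against 467, 399, 358 and 557 (0.48, SE 0.28). Bcl3, which encodes a nuclear IkB protein, ran the other way with 584, 273 and 492 against 387, 277, 224 and 165 (-0.78, SE 0.33). Stat3 itself was at 964, 540 and 970 on day 4 and 901, 682, 536 and 587 on day 12. Il1b, a cytokine that IL-10 restrains, had 851, 1405 and 1017 against 2213, 3989, 660 and 505, and its ratio was 2.49 in experiment 2 and 0.36 in experiment 3.

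**Figure D3:**
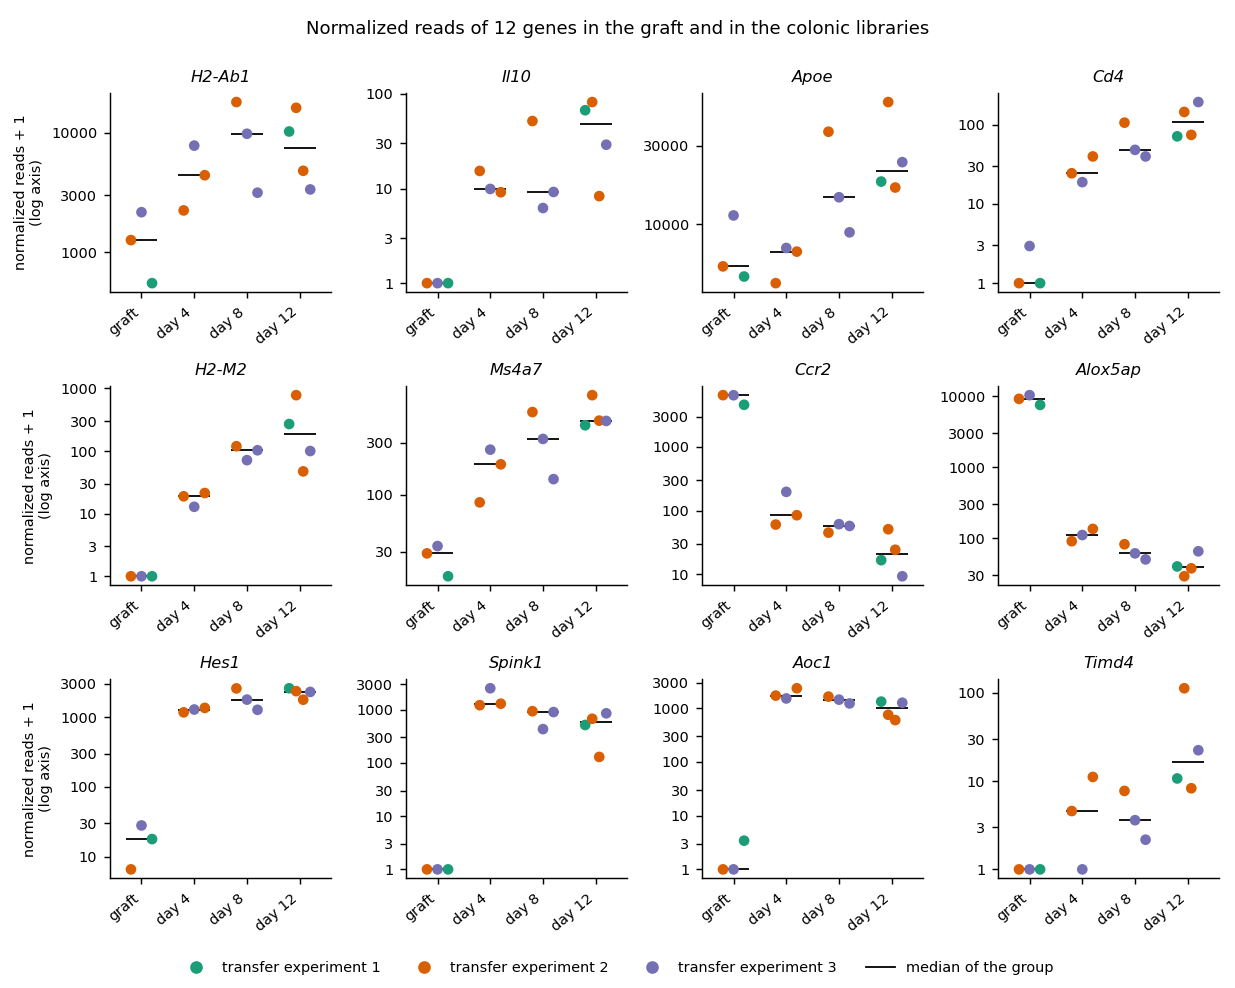
Normalized reads (log axis, 1 added) of 12 genes in the 3 graft libraries and in the colonic libraries of days 4, 8 and 12, with points coloured by transfer experiment and a line at the median. H2-Ab1 and Il10 overlap between day 4 and day 12, whereas Apoe, Cd4, H2-M2, Ms4a7 and Hes1 lie higher and Ccr2, Alox5ap, Spink1 and Aoc1 lower in every day 12 library than in every day 4 library.

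Apoe (chromosome 7, 20281593 to 20283747) encodes a lipid carrier that macrophages secrete. It had 4408, 7204 and 6847 normalized reads on day 4 and 18204, 55237, 16752 and 23881 on day 12, with no overlap. The log2 fold change was 2.21 (SE 0.63, 95% interval 0.9 to 3.52), with a ratio of 6.4 in experiment 2 and 3.32 in experiment 3. Without day 12 replicate 2 the day 12 mean was 19612 in place of 28519. On day 8 it had 36500, 14624 and 8962. Relative to leukocyte reads it did not overlap either, with 816, 641 and 704 per 1000 pan-leukocyte reads on day 4 and 1944, 2938, 2635 and 3352 on day 12. The same held per read of Csf1r, a gene of monocytes and macrophages, with 9.28, 7.23 and 7.06 on day 4 and 15.6, 14, 16 and 19.8 on day 12. These 2 denominators were chosen after seeing the data.

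Of the macrophage list 28 genes were tested, with a median estimate of 0.55 and 25 estimates above 0. Csf1r and Lyz2, which encodes lysozyme M, were free of overlap together with Apoe, and 2 genes, Apoe and the mannose receptor gene Mrc1, had an unadjusted p under 0.05. Over all genes 1.85% were higher without overlap and 1.58% were higher at this p. Csf1r had 475, 996 and 970 on day 4 and 1164, 3942, 1048 and 1207 on day 12 (1.16, SE 0.62). Lyz2 had 642, 975.4 and 1043 against 1199, 3958, 1274 and 1202 (1.1, SE 0.64), and part of its reads can be shared with the near copy Lyz1. In both, day 12 replicate 2 held over 3 times any other library. C1qa, a complement gene that marks gut macrophages, had 1262, 3323 and 3235 against 2908, 7735, 2112 and 3112 and overlapped (0.58, SE 0.62). Per read of Csf1r, C1qa was lower in every day 12 library (1.96 to 2.58) than in every day 4 library (2.66 to 3.34), while Lyz2 overlapped.

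Genes that mark long-lived gut macrophages were of low abundance. Cd4 (chromosome 6, 124814711 to 124838227) had 23.3, 17.8 and 38.6 on day 4 and 70.1, 143, 73.1 and 191 on day 12, with no overlap (2.18, SE 0.65, 95% interval 0.84 to 3.52). Its ratio was 3.49 in experiment 2 and 10.8 in experiment 3. The T cell list, which Cd4 could belong to as well, had sums of 276 to 397 on day 4 and 268 to 374 on day 12. Much of this was Bcl11b, with 175.7, 166 and 270.5 on day 4. The 13 tested genes of the T cell list had a median estimate of 0.64, with 8 above 0. The part of T cells in the Cd4 values was not tested. Per 1000 pan-leukocyte reads Cd4 was again free of overlap (1.58 to 4.31 against 7.48 to 26.9), but per read of Csf1r it was not. Timd4, which encodes TIM-4, had 3.58, 0 and 10.2 on day 4 and 9.73, 112, 7.31 and 21.4 on day 12, so only replicates 2 and 4 exceeded day 4. Hes1, a Notch target in macrophages as well as in epithelium, had 1169, 1284 and 1354 against 2588, 2354, 1775 and 2292 (0.83, SE 0.31). Cd209f was at or under the floor in all 7 libraries but day 12 replicate 4 (28), and C2 (26.9, 29.6 and 10.2 against 9.73, 6.23, 2.44 and 42.9) and Rusc2 (34.1, 29.6 and 42.7 against 64.2, 28, 28 and 59.4) overlapped. Over the 11 tested genes of the list the median estimate was 0.35.

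Ccr2 and Alox5ap, both abundant in the graft, lay lower in every day 12 library than in every day 4 library. Ccr2 (chromosome 9, 124016922 to 124023879), the chemokine receptor by which monocytes leave the marrow, was at 4611 to 6535 in the graft. It had 59.1, 196 and 83.4 on day 4 and 15.6, 49.8, 23 and 8.25 on day 12 (-2.3, SE 0.74, 95% interval -3.84 to -0.76). Alox5ap, which encodes the activator of 5-lipoxygenase in leukotriene synthesis, had a mean of 9062 in the graft, at 89.6, 110 and 134 on day 4 and at 38.9, 28, 36.5 and 64.3 on day 12 (-1.34, SE 0.38). Both were also free of overlap per 1000 pan-leukocyte reads (Ccr2 8.58 to 17.4 on day 4 and 1.16 to 3.64 on day 12). Per 1000 reads of the epithelial list Ccr2 overlapped (0.252 to 0.807 against 0.0396 to 0.284), while Alox5ap did not (0.381 to 0.512 against 0.16 to 0.309). Alox5ap is also a gene of tuft cells, a rare epithelial type, and stands in that list and not in the monocyte list. Ltc4s, which acts after it in leukotriene synthesis and stands in the tuft list too, ran the other way with 32.3, 74.1 and 93.5 against 123, 411, 157 and 102. The monocyte genes other than Ccr2 were less uniform. The list of 24 tested genes had a median estimate of -0.4, with 16 below 0. At an unadjusted p under 0.05 there were 1 higher and 2 lower, beside 1.58% and 0.49% of all genes. The higher one was Cebpe, a transcription factor gene of granulocyte precursors, with no read on day 4 and 5.84, 3.1, 1.22 and 1.65 normalized reads on day 12, all at or under the floor of 3 reads, so no fold is given. S100a8, a calgranulin of monocytes and neutrophils, had 19.7, 119 and 14.2 against 3.89, 21.8, 3.65 and 23. Plac8 (5284, 6024 and 3205 against 3042, 4151, 2916 and 4456) and Ccl6 (1640, 1260 and 1277 against 1898, 928, 1288 and 1435), the most abundant of the list, overlapped. Mpo, Elane and Mcpt8, granule genes of young marrow cells, had no read in any of the 7.

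**Figure D4:**
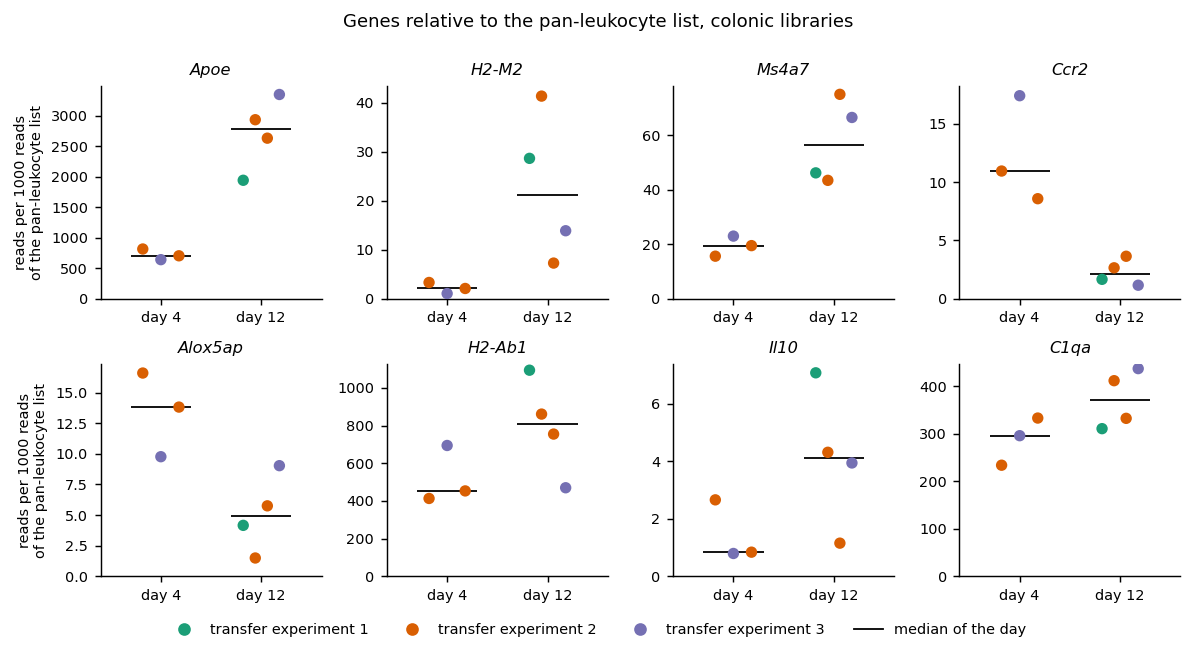
Reads of 8 genes per 1000 reads of the pan-leukocyte list in the 3 day 4 and 4 day 12 colonic libraries, on linear axes from 0, with points coloured by transfer experiment and a line at the median. Apoe, H2-M2 and Ms4a7 lie higher and Ccr2 and Alox5ap lower in each day 12 library, while H2-Ab1, Il10 and C1qa overlap.

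As no gene passed, the genes of lowest p without overlap, with a mean of at least 100 normalized reads on the higher day and the same direction within experiments 2 and 3, were ranked, and 114 higher and 209 lower genes met these conditions. The first 15 of each are described here, and their direction and lack of overlap follow from this rule. H2-M2, a nonclassical MHC class I gene, led the higher ones with 17.9, 11.9 and 20.3 on day 4 and 269, 778, 46.3 and 98.9 on day 12 (4.05, SE 1.02, 95% interval 1.93 to 6.18), and DESeq2 gave it an adjusted p of 0.043. Without day 12 replicate 2 its day 12 mean was 138 in place of 298. It had no read in the graft, and 118, 70.5 and 102 on day 8. Cxcl9, an interferon-gamma-induced chemokine, had 19.7, 23.7 and 42.7 against 138, 588, 93.8 and 56.1 (2.87, SE 0.97), and a day 12 mean of 96 in place of 219 without the same library. Hmox1, heme oxygenase 1, had 41.2, 65.2 and 118 against 251, 280, 161 and 341 (1.8, SE 0.57). Ms4a7, a tetraspanning membrane protein gene of macrophages, had 84.2, 258 and 189 against 432, 816, 476 and 473 (1.63, SE 0.57), and Fcgr4, an activating Fc receptor, had 21.5, 71.2 and 42.7 against 218, 265, 78 and 97.3. Ecm1 had 195, 288 and 303 on day 4 and 603, 632, 546 and 633 on day 12. Aldh1a1, an enzyme of retinoic acid synthesis, Ang, an angiogenin, Olfml3, Apol10a, Pibf1 and Tmed1 complete the group with Apoe, Cd4 and Hes1. The estimates of the 15 were between 0.77 and 4.05.

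These 15 genes were not of a kind. In 7 of them day 12 replicate 2, the library with the highest leukocyte sum, was the highest of the 7 libraries, and in the others it was not. Taken per read of the epithelial list, all 15 stayed free of overlap. Per 1000 pan-leukocyte reads 8 of 15 did, and per read of Csf1r 3 did, which were Apoe, H2-M2 and Cxcl9. Csf1r was itself higher in every day 12 library, which makes the last ratio the stricter one. The share of all genes free of overlap on these scales is not given here. The day 8 mean lay between those of day 4 and day 12 in all 15. The ranking favours this, since it picks genes in which these days lie apart, so no time course is read from it.

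The 15 lower genes had estimates between -0.42 and -2.84. Besides Ccr2 and Alox5ap they included genes known from gut epithelium. Spink1, a trypsin inhibitor, had 1205, 2505 and 1285 on day 4 and 512, 670, 128 and 848 on day 12 (-1.66, SE 0.61). Aoc1, the gut diamine oxidase, had 1714, 1518 and 2349 against 1325, 754, 599 and 1263 (-0.91, SE 0.38). Aldh1l1, an enzyme of folate metabolism, had 622, 593 and 606 against 385, 293, 290 and 414 (-0.8, SE 0.33). Stim1, the calcium sensor of the endoplasmic reticulum, had 606, 593 and 962 against 582, 430, 263 and 483. St8sia5, a sialyltransferase gene, had the largest estimate, with 44.8, 219 and 63 against 15.6, 3.1, 3.65 and 36.3 (-2.84, SE 0.9). Zfp467, Slc36a1, Themis3, Pla2g4f, Dennd6a, Lrrc51, Fam134a and Abca3 were the others. Since the epithelial list itself was lower in all day 12 libraries, the genes were also taken per read of that list. Then 9 of 15 stayed free of overlap, among them Aoc1 and Spink1. Spink1 had 5.12, 10.3 and 4.9 per 1000 epithelial reads on day 4 and 2.22, 3.81, 0.579 and 4.07 on day 12. Per 1000 pan-leukocyte reads 8 of 15 stayed free of overlap. Per read of Csf1r, itself higher in every day 12 library, all 15 did. The share of all genes on these scales is not given here. In 6 of the 15 the graft mean was under 3 normalized reads. The day 8 mean lay between the others in 13, which the ranking favours in the same way.

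**Figure D5:**
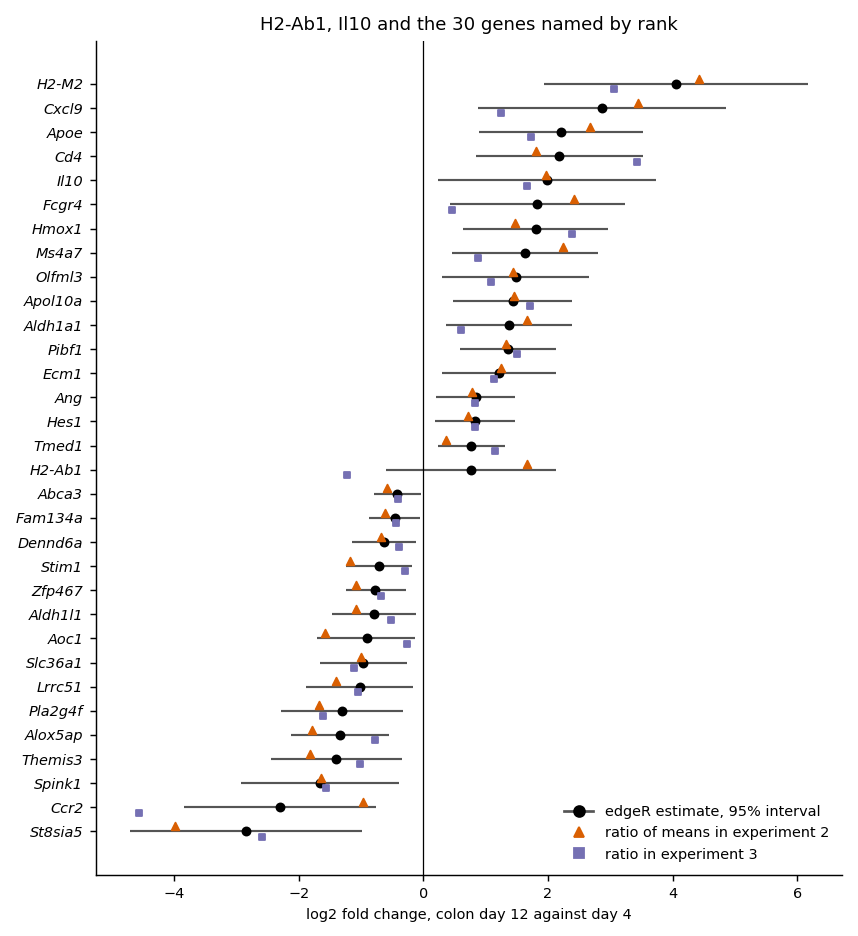
Log2 fold change from day 4 to day 12 in colonic libraries for H2-Ab1, Il10 and the 15 higher and 15 lower genes named by rank, with the edgeR estimate and its 95% interval, and the ratio of means within experiment 2 and within experiment 3. The ranked genes share a direction in both experiments by rule, whereas H2-Ab1 does not.

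Chemokines and inflammatory effectors varied by library. Of 33 chemokine and receptor genes tested the median estimate was 0.6, with 5 higher (Ccl4, Ccl8, Cxcl9, Cxcl10 and Pf4) and Ccr2 lower at an unadjusted p under 0.05. Over all genes 1.58% were higher and 0.49% lower at this p. Free of overlap were Ccl4 and Cxcl9, higher, and Cxcl5 and Ccr2, lower, beside 1.85% and 2.13% of all genes. Ccl4, a macrophage inflammatory protein gene, had 68.1, 142 and 134 against 459, 498, 190 and 251 and did not overlap (1.56, SE 0.72). Ccl8 had 44.8, 128 and 48.8 against 142, 726, 45.1 and 732, and Cxcl10 160, 228 and 230 against 985, 1853, 205 and 158, so that replicates of day 12 differed by over 10-fold in both. The 18 inflammatory effectors tested had a median estimate of 0.69. Ccl4 and Il1a were higher at an unadjusted p under 0.05, beside 1.58% of all genes. Ccl4 and Tnf were higher without overlap and Il18 lower, beside 1.85% and 2.13% of all genes. Tnf had 84.2, 86 and 73.2 against 220, 339, 105 and 120 (1.23, SE 0.61). Il1a had 12.6, 26.7 and 12.2 against 93.4, 221, 17.1 and 11.5. Il18, which epithelium also makes, ran the other way with 1597, 1868 and 1267 against 685, 912, 697 and 1159. Interferon-stimulated genes had a median estimate of 0.33 over 35 genes, with Cxcl9 and Cxcl10 under an unadjusted p of 0.05, beside 1.58% of all genes. Irf1 was at 454, 406 and 427 on day 4 and 720, 775, 403 and 742 on day 12, and Axl, a receptor for dead cells, at 181, 255 and 214 against 380, 526, 228 and 279.

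Several programmes had medians close to that of all genes, though the direction was not evenly split in some of them. The 50 cell cycle genes had a median estimate of 0.16, with none under an unadjusted p of 0.05 and Mki67 at 482, 608 and 205 on day 4 and 504, 657, 519 and 274 on day 12. The medians were 0.09 for 83 cytosolic ribosomal protein genes, -0.03 for 80 genes of oxidative phosphorylation, -0.15 for 64 clustered histone genes, 0.16 for 37 lysosomal and uptake genes, 0.07 for 24 genes of the TGF-beta pathway, 0.02 for 33 pattern recognition genes, 0.16 for 19 genes of the unfolded protein response, 0.12 for 16 clock genes and -0.09 for 45 genes of lipid handling. Estimates were above 0 in 38 of the 50 cell cycle genes and 66 of the 83 ribosomal protein genes, beside 6426 of all 11842 genes. They were below 0 in 54 of the 64 histone genes, beside 5410 of all genes. Of the histone genes 5 were lower without overlap, beside 2.13% of all genes. Tgfbr2, the type II TGF-beta receptor gene, had 299, 285 and 348 against 403, 389, 318 and 364. Immediate early and AP-1 genes, which tissue digestion is known to induce, had a median of 0.42 over 33 genes. At an unadjusted p under 0.05 there were 3 higher (Nr4a3, Ier5 and Gadd45b), beside 1.58% of all genes. Of these 33 genes 4 lay higher in every day 12 library, Fosb, Egr2, Nr4a1 and Nr4a3, and none lower, beside 1.85% and 2.13% of all genes. Fosb had 850, 1008 and 1059 on day 4 and 1934, 1404, 1066 and 3127 on day 12, while Fos overlapped with 8380, 6501 and 8760 against 9281, 5938, 4704 and 10849. Of single genes that the study names, the log2 fold changes were 0.25 (SE 0.25) for Hmga1, -0.13 (SE 0.21) for Rpl10, -0.1 (SE 0.55) for Foxd2, -0.68 (SE 0.59) for Nr3c2 and 0.11 (SE 0.33) for Id2.

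Some epithelial genes were free of overlap as well. Lower without overlap were 2 of 36 genes of the epithelial list and 4 of 20 of colonic enterocytes, beside 2.13% of all genes. None of either list was higher without overlap, beside 1.85% of all genes. Of goblet, enteroendocrine and small intestinal enterocyte genes, Spink4 (0.35), Gcg (1.26) and Alpi (1.43) were higher without overlap, and Mttp and Adh6a lower. The 36 genes of the epithelial list had a median estimate of -0.18, with 24 below 0, and the 20 genes of colonic enterocytes had 0.04. Lypd8, an antibacterial protein of the colonic surface, had 43966, 55832 and 44393 on day 4 and 34648, 25397, 20754 and 34652 on day 12 without overlap (-0.74, SE 0.5). Saa1, an acute phase gene that colonic epithelium makes, had 2800, 8470 and 2751 against 1866, 1021, 1034 and 1704 (-1.79, SE 0.87). Atp1b1, which encodes a sodium pump subunit (9944, 9694 and 11184 against 9275, 7504, 7158 and 6066), did not overlap either. Muc2, the main mucin of goblet cells, had 16304, 8494 and 14409 against 24528, 14209, 17748 and 9826, with a goblet list median of 0.23. Stromal lists varied between libraries: fibroblast genes summed to 3857 to 6957 on day 4 and to 1043 to 9382 on day 12, with the lowest value in day 12 replicate 2. B and plasma cell genes, chiefly Jchain, summed to 3784 to 8559 on day 4 and 747 to 6326 on day 12. Of the 41 lists, 4 had sums above and 2 sums below those of day 4 in all day 12 libraries, and 35 overlapped. The macrophage, long-lived macrophage, lipid handling and mast cell lists were the higher ones, and the epithelial and the mucosal defence lists the lower. Single genes weighed heavily in the higher sums: Apoe in the macrophage and lipid handling lists, Hes1 in the long-lived list and Kit in the mast cell list. In day 12 replicate 3 Apoe held 16752 of 33189 normalized reads of the macrophage list, against 7204 of 28798 in day 4 replicate 2. Hes1 held 1775 of 2226 and 1284 of 1897 in the long-lived list of these libraries. Less these reads, day 12 replicate 3 lay below day 4 replicate 2 in both lists, so neither list was then free of overlap. Cpa3, Mcpt4, Ms4a2 and Tpsab1 of the mast cell list had no read in the 7.

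Neither step of the interval had calls of its own. From day 4 to day 8 no gene passed (0%), with 204 at an unadjusted p under 0.05, and from day 8 to day 12 none (0%), with 329. The colonic day 8 libraries fell into the same spread, with macrophage sums of 74246, 37414 and 26106. Another day 8 library, of experiment 1, was left out of the fit as the study did not use it, and it had a macrophage sum of 330846 and an epithelial sum of 125616, unlike the other colonic libraries.

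In ileum 272 genes (2.3%) passed between day 4 and day 12, 33 higher and 239 lower. The difference of the change between colon and ileum itself passed in no gene (0%, with 739 at an unadjusted p under 0.05), so a gene that passed in ileum alone is not shown to differ. The count rests on the ileal day 4 libraries, since 61 genes passed without replicate 1 and 1 without replicate 4 of that group. Ileal day 4 replicates 2 and 3, both of experiment 1, had colonic enterocyte sums of 159013 and 141486, against 18694 and 27131 in the other two. For H2-Ab1 the log2 fold change was larger in ileum than in colon by 0.86 (SE 0.88), and the ileal means were 10961 on day 4 and 31802 on day 12. For Apoe the difference, colon minus ileum, was 0.28 (SE 0.8), with ileal means of 29805 and 108708, and for Ccr2 it was -2.19, with ileal means of 297 and 260. Of the 15 higher genes 13 had a positive estimate in ileum, beside 51.3% of all genes, and of the 15 lower 13 had a negative one, beside 48.7%. Ecm1 (1.55, adjusted p = 0.042, edgeR) and Aldh1l1 (-1.3, adjusted p = 0.042, edgeR) passed there.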

How the data were processed

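Read counts of genes were used. The authors made libraries from poly(A) RNA with a MARS-seq variant that sequences transcript 3′ ends, aligned them to mm9 with HISAT 0.1.6, counted uniquely mapped sense reads on exons with HOMER keeping 1 transcript per gene, and, per the file headers, deposited the counts raw. Whether molecular identifiers were collapsed is not given in the sources used here. There were 24411 genes. The table of CX3CR1-DTR recipients was not used.

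Genes with 50 or more normalized reads in 3 or more libraries (11842) entered 1 edgeR fit (version 4.0.16, R 4.3.3, TMM, quasi-likelihood test) of 7 groups and 25 libraries, with an adjusted p (Benjamini-Hochberg) under 0.05 as threshold. The standard error was taken as the estimate over the root of F. The procedure was tested on simulated data. Alternatives were DESeq2 1.42.0, other scalings, filters and sets of libraries, and the transfer experiment as a block. Titles carry the dates that tie libraries to experiments, and deviations of day 4 and day 12 libraries of 1 experiment correlated between -0.21 and 0.14. Genes named are H2-Ab1, Il10, the 15 higher and 15 lower genes by rank, the 2 most abundant genes of lists, genes the study names, and others picked after their values were seen. Members and lists were chosen with earlier results of these data known. Some genes that the study names are not reported here.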

Additional observations from a re-analysis of the deposited data

Results flagged for a closer look

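In the 69 genes with a fold change, 1 library of day 12 stood apart from the other 3 in 10, by a rule that flags about 1 in 20 groups of independent, normally distributed values. The rule was applied to normalized reads without logs. These genes share the same libraries and were partly picked after their values were seen, so the 10 cannot be read as an excess. In 5 of them it was replicate 2, the library with the highest leukocyte sum: Cxcl9 (588 normalized reads), Ms4a7 (816), Timd4 (112), Csf1r (3942) and Lyz2 (3958). Replicate 1 was highest for Lrrc51 (95.4), Fam134a (516) and Foxd2 (586). Replicate 3 was highest for Aldh1a1 (800.4) and lowest for Irf1 (403). No named gene had libraries apart in opposite directions in colon and ileum.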

How the results depend on the processing

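The count of genes between day 4 and day 12 in colon was 0 in every setting but DESeq2, which called 1. Leaving out 1 library at a time gave 0 to 0, and the transfer experiment as a block 0, with 25 libraries and with 7. At an unadjusted p under 0.05 there were 134 to 630 genes over the settings (245 as reported). For the difference between colon and ileum the count was 0 as reported, between 0 and 61 with 1 library left out, and 0 with the block. Without day 12 replicate 1 there were 918 genes with all day 12 libraries below day 4, in place of 252, and 318 above in place of 219. Fewer libraries are compared there, and why the lower count moved more was not tested. Of 1302 estimates of single genes under alternatives, 1287 kept their direction without a call, 1 was called (H2-M2 with DESeq2), and 14 had the other direction. These 14 fell in 6 genes, which were near 0, rested on 1 library or, for Rusc2, differed in direction between transfer experiments. None of the 30 ranked genes was among them. With 1 library left out, Il1b ran from -0.07 (without day 12 replicate 2) to 0.99, Spi1 from -0.08 (without the same library) to 0.93, Rpl10 from -0.25 to 0.02, Foxd2 from -0.29 to 0.1 and Id2 from -0.09 to 0.54. Experiment 2 alone gave -0.3 for Rusc2, 0.04 for Rpl10 and -0.11 for Id2, and the block in 7 libraries -0.02 for Id2. A fit of 7 libraries without day 12 replicate 2, chosen after seeing the data, also called 0 genes, with Il1b at -0.07 and Spi1 at -0.09. Depth limits genes such as Il10 and Timd4, which had few reads.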
